A study of Mus musculus with 18 samples.

Results

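Bone marrow-derived macrophages (BMDMs) given Met above crystal-treated renal tubular epithelial cells (TECs) were compared with control BMDMs above untreated TECs. The comparison covered 10786 of the 25926 genes in the deposited table, namely those whose mean over its 12 samples reached 1 FPKM. FPKM counts mapped fragments scaled to gene length and to the total of the sample. The BMDMs were grown from the marrow of C57BL/6 mice aged 6 to 8 weeks in M-CSF at 50 ng/mL for 7 days, with fresh medium on day 5, and were placed in a Transwell whose pores of 0.4 μm kept them apart from the TECs in the lower chamber. In the control group (NC, n = 6) the BMDMs received PBS and the TECs no crystals. In the COM+Met group (n = 6) the BMDMs received 5 mM Met for 24 h, and the TECs had been exposed for 24 h to 100 μg/mL calcium oxalate monohydrate (COM), the main mineral of kidney stones. The COM group (n = 6) received PBS above TECs exposed to the same crystals, and its levels are given beside the other groups. The labels do not spell out Met, and their treatment text can also be read as giving Met to the COM group, although the sample characteristics name PBS there. NC and COM+Met differ in both crystals and Met, so the parts of crystals and of Met in a difference between them cannot be told apart. Whether the replicates are separate mice or cultures is not stated, and the p-values may then measure technical spread only.

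As background, macrophages that sense danger signals through Toll-like receptors switch on cytokine genes through NF-kappa B and make type I interferon. Interferon acts through its receptor on transcription factors such as Stat2 and Irf9, which bind the interferon-stimulated response element in the promoters of antiviral genes. Activated macrophages also turn part of the tricarboxylic acid (TCA) cycle to itaconate, which is made by the enzyme encoded by Acod1 (also called Irg1) and inhibits succinate dehydrogenase.

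The FPKM values of a sample summed to 415715 to 430822 in NC and 430165 to 441308 in COM+Met, but these sums depend on gene length and the read depth is unknown. Samples NC-5 and NC-6 stood apart from NC-1 to NC-4. Over the genes tested, Pearson's r of log2(FPKM + 1) was 0.993 between NC-5 and NC-6, 0.985 to 0.995 among NC-1 to NC-4 and 0.937 to 0.961 between the 2 sets, against 0.989 to 0.995 within COM+Met. All 6 COM+Met samples correlated less with NC-5 and NC-6 (0.780 to 0.789) than with NC-1 to NC-4 (0.839 to 0.870). The COM samples also fell apart, since the median log2(FPKM + 1) of interferon-stimulated effector genes was 5.44 to 5.48 in COM-1 to COM-3 and 7.12 to 7.22 in COM-4 to COM-6, and nuclear-encoded respiratory chain genes had a median of 4.23 in COM-6 against 5.38 to 5.61 in the other COM samples. Values without NC-5 and NC-6 are given beside many of the results below. A result printed without such a value may also have moved. All 14 macrophage markers were detected in both groups, and their summed FPKM was 12510 to 17270 in NC and 14120 to 19040 in COM+Met. Lyz2 alone gave 9797 to 14000 and 9807 to 14540 FPKM of these sums. Of the 14 markers, 5 were called higher and 1 lower. Adgre1, which encodes F4/80, was at 98.6 to 120 FPKM in NC and 493 to 634 FPKM in COM+Met. The lower one was Mrc1, at 53.8 to 122 and 2.38 to 2.95 FPKM. Of 19 tubular epithelial markers, 13 were under 0.1 FPKM in every sample of both groups, and all 19 summed to 11 to 18.4 FPKM in NC, of which Cdh1 gave most, and to 0.060 to 0.332 FPKM in COM+Met.

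Expression in COM+Met macrophages differed from NC in a large part of the genes. The largest rises were the chemokine Ccl5, the acute-phase gene Saa3 and a block of interferon-stimulated and MHC class I genes, and the largest falls were the calcium-binding proteins S100a9 and S100a4 and genes of mitosis. Of 10786 genes, 2078 (19.3%) were called, which means an adjusted p below 0.05 and a difference of at least 2-fold on the log2(FPKM + 1) scale. There were 611 genes higher (5.66%) and 1467 lower (13.6%). The number of genes called in a list below is to be read beside these shares of all genes. An adjusted p below 0.05, whatever the size of the difference, was reached by 8114 genes. Both groups of 6 were fully apart in 6218 genes (57.6%), and this held for 2012 of the genes called. The median difference of all genes was -0.26 on the log2 scale, and list medians are therefore given relative to it. Under median-of-ratios scaling that median was 0.01, and 840 genes were called higher and 987 lower, so that 46.0% of the genes called were higher against 29.4% here. Without NC-5 and NC-6, 1906 genes were called, 545 higher and 1361 lower.

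**Figure D1:**
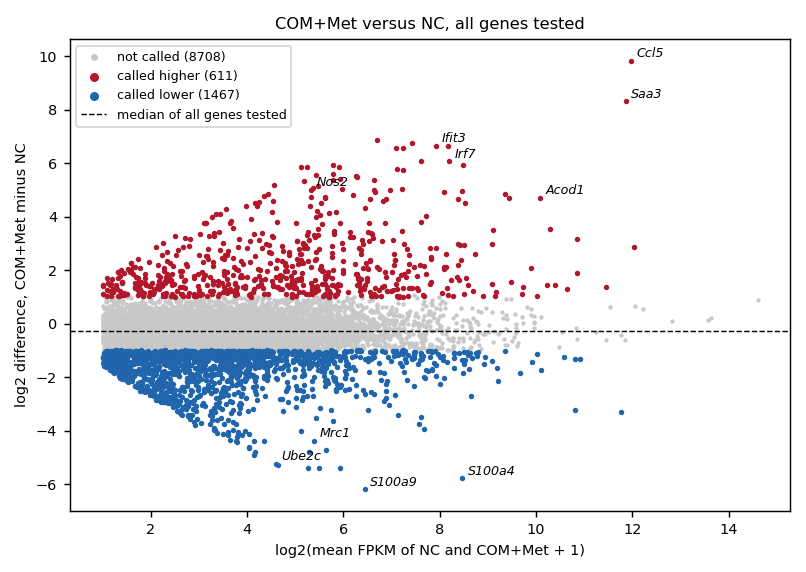
Each point is 1 of the 10786 genes, with its log2 mean level on the horizontal axis and the log2 difference of COM+Met minus NC on the vertical axis, both on the log2(FPKM + 1) scale. Coloured points are the 611 genes called higher and the 1467 called lower, and the dashed line marks the median of all genes at -0.26.

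Interferon signalling genes were called higher in 11 of 22 tested members and lower in 1, and the list median stood 1.33 above that of all genes. Irf7, the factor that amplifies type I interferon production (ENSMUSG00000025498, GRCm38 chr7:141262706-141266481, minus strand), had a lowest, median and highest value of 3.29, 9.37 and 13.7 FPKM in NC and of 554, 575 and 599 FPKM in COM+Met, a log2 difference of 6.07 ± 0.28 (SE, n = 6 per group, adjusted p = 7.47e-10). The lowest NC values were those of NC-5 and NC-6, and no sample of either group came near the other group. Usp18, a brake on signalling by the type I interferon receptor, rose from 0.822 to 11.6 FPKM in NC to 180 to 202 FPKM in COM+Met (4.99 ± 0.43, and 4.25 without NC-5 and NC-6). Stat2, which carries the interferon signal to the nucleus, had a mean of 16.1 FPKM in NC and of 91.3 FPKM in COM+Met and was called (2.47). Ifngr1, a chain of the interferon gamma receptor, fell by 1.09 on the log2 scale, a call that was lost under median-of-ratios scaling. The interferon gene Ifnb1 itself stayed under the filter, with a mean of 0.041 FPKM in NC and 0.426 FPKM in COM+Met.

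The interferon-stimulated effectors, which carry out the antiviral state, formed the group with the largest median difference of the 30 gene lists. Of 75 members tested, 69 were called higher and 2 lower, the median stood 4.0 above that of all genes, and the groups were fully apart in 71. Without NC-5 and NC-6, 69 were higher and 2 lower as well, and the median was 3.45. The median member had a log2(FPKM + 1) of 1.92 to 3.52 in the NC samples and 6.57 to 6.68 in the COM+Met samples. NC-5 and NC-6 held the lowest NC medians, at 1.92 and 1.98.

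Ifit3, which encodes an RNA-binding antiviral protein, was at 0.572, 5.51 and 10.1 FPKM (lowest, median, highest) in NC and at 446, 473 and 541 FPKM in COM+Met (6.66 ± 0.41, adjusted p = 1.14e-08). Rsad2, which encodes viperin, an enzyme that makes a chain-terminating nucleotide, was at 0.574, 6.59 and 14.4 FPKM in NC and at 547, 555 and 605 FPKM in COM+Met (6.63 ± 0.47, adjusted p = 4.27e-08). Both genes had narrow ranges in COM+Met and wide ones in NC, with NC-5 and NC-6 lowest, and without those 2 samples the differences were 5.96 for Ifit3 and 5.84 for Rsad2. Ifi205 (6.56 ± 0.37), Ms4a4c (6.87 ± 0.19) and Ifit2 (6.09 ± 0.43) were also among the 10 largest rises, and Ifi205 and Ifit2 differed by 5.95 and 5.37 without NC-5 and NC-6. The ubiquitin-like modifier Isg15 had mean levels of 13.4 FPKM in NC and 696 FPKM in COM+Met. Ifit, Ifi200, Ms4a4 and H2-Q genes have near-identical relatives, and how shared reads were divided among them is not given, so the value of a single member is uncertain. The 2 members called lower were Ifitm1 and Ifitm6, of a family that blocks virus entry. Ifitm1 was at 23.3, 188 and 248 FPKM in NC and at 13.1, 16.3 and 34.7 FPKM in COM+Met, so its groups overlapped, and its difference of -2.49 was -3.45 without NC-5 and NC-6. The call on Ifitm6 (-1.06 ± 0.29) was lost under median-of-ratios scaling and without NC-1, NC-3 or NC-4.

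Promoters of the effectors often held the core of the interferon-stimulated response element. The core was searched as a pair of GAAA with any 2 bases between them, on both strands, in the RefSeq promoter of each gene, 250 bases before to 50 bases after its start. It was present in 31 of 57 effectors with a promoter (54.4%), 5 of 20 MHC class I genes (25%), 78 of 432 genes called higher (18.1%), 30 of 1099 called lower (2.73%) and 943 of all 27025 promoters (3.49%). A match is only a description of the letters. The 6 effectors below had some of the largest rises among those with a match before the start, and not every chromosome entered this choice. These genes are shown so that the letters can be seen beside the values. Coordinates are GRCm38.p6 from RefSeq, and letters run 5′ to 3′ on the strand of the gene, with the matches in capitals.
Ifit3 (chr19:34583361-34583428, plus strand): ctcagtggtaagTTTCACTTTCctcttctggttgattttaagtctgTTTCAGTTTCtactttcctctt
Rsad2 (chr12:26456551-26456584, minus strand): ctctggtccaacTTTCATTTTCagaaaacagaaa
Ifi205 (chr1:174031868-174031901, minus strand): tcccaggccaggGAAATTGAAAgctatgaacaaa
Isg15 (chr4:156200863-156200908, minus strand): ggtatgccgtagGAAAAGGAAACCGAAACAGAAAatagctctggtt
Gbp5 (chr3:142496757-142496790, plus strand): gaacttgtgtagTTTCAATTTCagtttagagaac
Ifit1 (chr19:34640773-34640825, plus strand): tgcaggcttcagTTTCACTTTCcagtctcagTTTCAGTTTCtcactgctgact
Isg15 held 3 overlapping matches within the printed stretch, Ifit3 and Ifit1 held 2 each, and the other 3 genes held 1. Mean levels of these 6 genes in NC were 2.41 to 13.4 FPKM, and in COM+Met 269 to 696 FPKM. Gbp5, a guanylate-binding protein that acts in inflammasome assembly, had means of 4.62 and 269 FPKM, and Ifit1 of 6.30 and 295 FPKM.

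**Figure D2:**
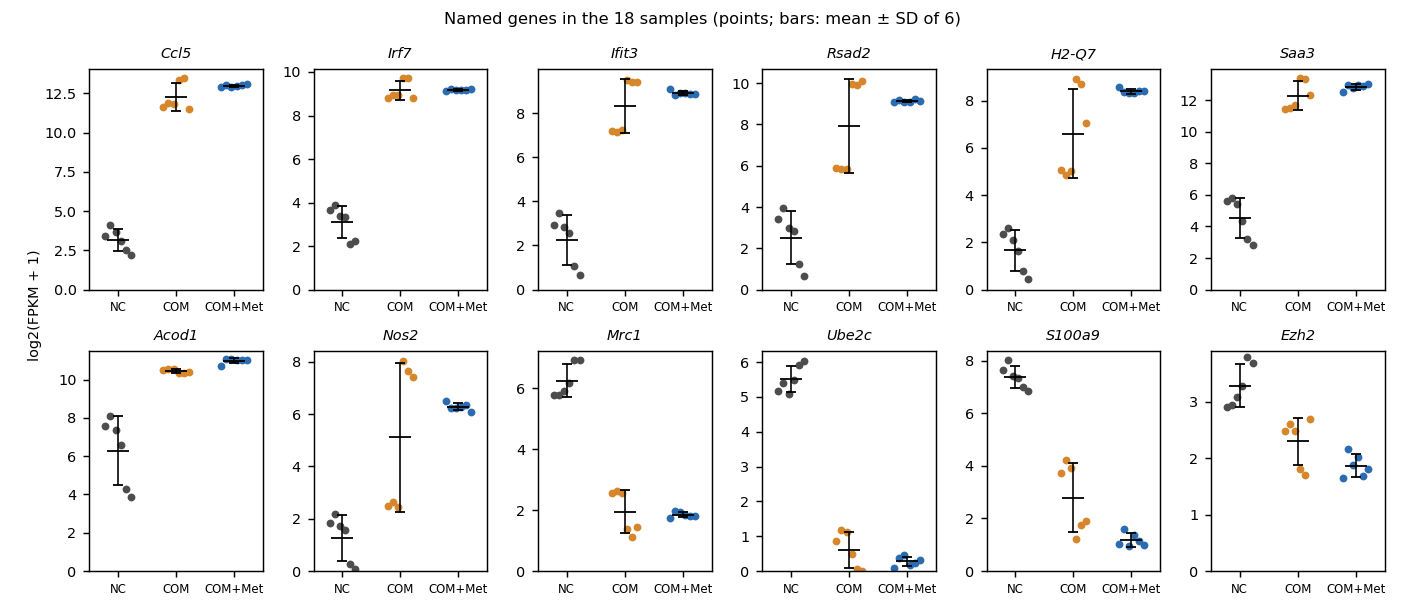
FPKM values of 12 genes on the log2(FPKM + 1) axis in the 6 samples of NC, COM and COM+Met, with a point per sample and the mean ± SD. Ccl5, Irf7, Ifit3, Rsad2, H2-Q7, Saa3, Acod1 and Nos2 lay higher in all COM+Met samples than in all NC samples, and Mrc1, Ube2c, S100a9 and Ezh2 lay lower.

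MHC class I presentation, which shows peptides from inside the cell to CD8 T cells, rose almost as a whole. Of 24 members, 21 were called higher and none lower, the list median stood 2.53 above all genes, and 21 were also called higher without NC-5 and NC-6 and under median-of-ratios scaling. H2-Q7, a non-classical class I heavy chain, was at 0.353, 2.73 and 5.15 FPKM in NC and at 316, 333 and 383 FPKM in COM+Met (6.75 ± 0.32, adjusted p = 1.21e-09). Its neighbour H2-Q6 differed by 6.56 ± 0.37. Among the abundant members, the classical heavy chain H2-K1 had a mean of 379 FPKM in NC and 3331 FPKM in COM+Met, and the light chain B2m of 1032 and 7407 FPKM. The peptide transporter Tap1 (2.82), the immunoproteasome subunit Psmb8 (2.37) and Nlrc5, the class I transactivator (2.71), were called as well.

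MHC class II presentation, which shows peptides taken up from outside to CD4 T cells, differed in the other direction and less evenly. Of 10 members tested, 5 were called lower and none higher, the median relative to all genes was -0.86, and the groups were fully apart in 1. H2-Eb1, a class II beta chain, was at 477 to 554 FPKM in NC-1 to NC-4 but at 71.5 and 49.0 FPKM in NC-5 and NC-6, and at 59.8 to 86.4 FPKM in COM+Met (-1.78 ± 0.59, adjusted p = 0.0149, and -2.81 without NC-5 and NC-6). NC-5 thus lay within the range of COM+Met and NC-6 below it. Without NC-5 and NC-6, 7 members were called lower, and the median relative to all genes was -1.635. With any of NC-1 to NC-4 or COM+Met-1 left out, 3 were called lower, and with NC-5 or NC-6 left out, 6. With any of COM+Met-2 to COM+Met-6 left out, 4 were called lower.

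Costimulation and checkpoint genes, which tune T cell responses, gave 10 members higher and 4 lower of 20, 7 and 4 without NC-5 and NC-6, and 10 and 2 under median-of-ratios scaling. Cd40, the receptor through which T cells license macrophages, was at 0.286, 3.74 and 8.11 FPKM in NC and at 79.8, 93.5 and 107 FPKM in COM+Met (4.71 ± 0.41, and 4.03 without NC-5 and NC-6). The checkpoint ligand Cd274 (PD-L1) had means of 79.7 and 476 FPKM (2.59). Cd86, a costimulatory ligand and a common marker of classical activation, differed by 0.62 ± 0.22 (adjusted p = 0.0213) and did not reach 2-fold, although its 2 groups did not overlap. Without NC-5 and NC-6 the difference of Cd86 was 0.24. Havcr2 (Tim-3) and Cd200r1, both inhibitory receptors, fell by 2.40 and by 2.24.

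Chemokine ligands, which draw other leukocytes, moved apart from one another. Of 19 tested, 10 were called higher and 5 lower, the list median stood 1.51 above all genes, and without NC-5 and NC-6 there were 7 and 5 with a median of 0.73. Ccl5, which attracts T cells and monocytes (ENSMUSG00000035042, GRCm38 chr11:83525778-83530518, minus strand), was the largest rise of all genes. It was at 3.51, 8.55 and 16.0 FPKM in NC and at 7581, 8020 and 8631 FPKM in COM+Met, a log2 difference of 9.82 ± 0.26 (adjusted p = 8.81e-12), and with NC-5 and NC-6 left out it was 9.42. The interferon-induced Cxcl10 was at 0.469, 14.3 and 24.2 FPKM in NC and at 191, 226 and 256 FPKM in COM+Met (4.65 ± 0.60), and its difference was 3.63 without those 2 samples. Ccl6 and Ppbp were the largest falls of the list, at -3.25 ± 0.19 and -2.40 ± 0.43, the latter -3.15 without those 2 samples. Ccl6, a chemokine that macrophages make in abundance, went from 2778 to 4241 FPKM in NC to 257 to 618 FPKM in COM+Met.

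Among 12 chemokine receptors tested, 3 were called higher and 4 lower. Ccrl2, a receptor that holds chemerin at the cell surface, rose by 3.75 ± 0.25, and Ccr7, which guides cells to lymph nodes, by 2.79 ± 0.53, or 1.91 without NC-5 and NC-6. Ccr2, the receptor of inflammatory monocytes, was at 4.0, 6.55 and 16.9 FPKM in NC and between 0.021 and 0.127 FPKM in COM+Met (-2.96 ± 0.28), and Ccr1 fell by 2.45.

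Cytokine genes gave 15 higher and 5 lower of 27 tested, with a median of 1.48 above all genes, and 12 and 5 with a median of 0.89 without NC-5 and NC-6. Both chains of interleukin-12, which drives interferon gamma production, rose. Il12b was at 0.142, 3.48 and 11.5 FPKM in NC and at 93.8, 117 and 151 FPKM in COM+Met (5.04 ± 0.51, and 4.23 without NC-5 and NC-6), and Il12a at 0, 0.558 and 2.06 FPKM in NC and at 27.2, 37.2 and 39.6 FPKM in COM+Met (4.53 ± 0.24). Il1b, the product of the inflammasome pathway, was less clear. It was at 4.18, 89.8 and 209 FPKM in NC and at 158, 171 and 184 FPKM in COM+Met, and its groups overlapped because NC-2 was higher than every COM+Met sample. Its difference of 1.91 ± 0.80 (adjusted p = 0.0455) was 0.55 without NC-5 and NC-6 (adjusted p = 0.0525), and the call was also lost in 9 of the fits that left out 1 sample. Ltb, which encodes lymphotoxin beta, and Il1f9, which encodes interleukin-36 gamma, were the largest falls, at -2.27 ± 0.37 (-2.88 without NC-5 and NC-6) and -2.02 ± 0.28. Of 28 cytokine receptors tested, 5 were higher and 7 lower, or 5 and 4 under median-of-ratios scaling, among them Il15ra (2.32 ± 0.087) and the decoy receptor Il1r2 (-2.68 ± 0.41, and -3.37 without NC-5 and NC-6).

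Receptors and pathway genes act upstream of these cytokines. Of 28 Toll-like receptor and adaptor genes, 5 were called, beside 19.3% of all genes. Of these, 4 were higher and 1 lower, and under median-of-ratios scaling 8 and 1. Tlr1, which pairs with Tlr2 to sense lipopeptides, rose from 1.19 to 5.83 FPKM in NC to 47.3 to 63.1 FPKM in COM+Met (3.75 ± 0.28), and the lipopolysaccharide co-receptor Cd14 by 2.82 ± 0.40, or 2.14 without NC-5 and NC-6. Tlr8, an RNA sensor, fell by 1.47. Of 32 NF-kappa B pathway genes, 7 were called higher and none lower, beside 19.3% of all genes called. With NC-5 and NC-6 left out 2 were higher and 1 lower, and leaving out NC-5 alone gave 5 higher. Under median-of-ratios scaling 11 were higher. Traf1, an adaptor of the tumour necrosis factor receptors, was the largest of these rises (3.32 ± 0.58, and 2.33 without NC-5 and NC-6). Ptgs2, which makes prostaglandins, had a difference of 1.77 ± 0.66 (adjusted p = 0.0259) that was 0.68 without NC-5 and NC-6, and the call was lost there.

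In the inflammasome and cell death list 5 of 19 genes were higher and 3 lower, or 7 and 2 under median-of-ratios scaling. The executor of necroptosis Mlkl (2.26 ± 0.062) and the lipopolysaccharide sensor Casp4 (2.13 ± 0.14) rose. Ripk3, the kinase that acts on Mlkl, was at 22.7, 29.0 and 32.1 FPKM in NC and at 7.47, 8.33 and 9.36 FPKM in COM+Met (-1.62 ± 0.089), and the sensor Nlrp1b fell by 2.28. Nlrp3, the inflammasome sensor of crystals, had means of 28.8 and 45.1 FPKM and was not called.

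Itaconate synthesis and the enzyme it inhibits were the question of the study, and here they differed in size. Acod1 (ENSMUSG00000022126, GRCm38 chr14:103046977-103056573, plus strand) was at 13.4, 129 and 271 FPKM in NC and at 1650, 2100 and 2153 FPKM in COM+Met, a log2 difference of 4.70 ± 0.66 (adjusted p = 2.62e-05). Values in NC spread widely, with NC-5 and NC-6 at 18.2 and 13.4 FPKM against 93.8 to 271 FPKM in the other 4, and the difference was 3.59 without those 2. The 4 subunits of succinate dehydrogenase, which links the TCA cycle to the respiratory chain, did not reach 2-fold. Sdha was at 71.4, 74.7 and 92.4 FPKM in NC and at 59.2, 61.8 and 66.3 FPKM in COM+Met (-0.35 ± 0.070, adjusted p = 0.000521). Sdhc and Sdhd differed by -0.33 and -0.27, and Sdhb by -0.03 (adjusted p = 0.659). Relative to the median of all genes these differences were -0.09 for Sdha, -0.07 for Sdhc, -0.01 for Sdhd and 0.23 for Sdhb, and under median-of-ratios scaling -0.04, -0.03, 0.04 and 0.28. Hif1a, which succinate can stabilise as a protein, differed by 0.29 ± 0.071.

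Of the whole itaconate and TCA list, 6 of 32 genes were called, beside 19.3% of all genes. Of these, 1 was higher, which was Acod1, and 5 were lower (3 under median-of-ratios scaling). Idh1, which makes NADPH in the cytosol, had values of 91.0, 113 and 143 FPKM in NC and of 23.4, 27.8 and 28.5 FPKM in COM+Met (-2.06 ± 0.10). Pdk1, which restrains entry of pyruvate into the cycle, fell by 1.46, and Fh1, which encodes fumarase, by 1.23. The median of the list relative to all genes was -0.09.

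Glycolysis and HIF genes gave 5 higher and 5 lower of 32, and 6 and 1 under median-of-ratios scaling. Pfkfb3, which makes the activator of phosphofructokinase, rose by 2.38 ± 0.086 and the myeloid hexokinase Hk3 by 2.18 ± 0.052. Aldoc fell by 2.81, and Pfkfb4 by 1.22, a call that median-of-ratios scaling did not keep. Of 72 nuclear-encoded respiratory chain genes, none was called higher and 2 lower, Ndufs8 (-1.22) and Atp5g3 (-1.07). Both calls were lost under median-of-ratios scaling, and that on Atp5g3 also without NC-5 and NC-6. None of the 13 mitochondrially encoded genes was called by limma, with 9 at an unadjusted and 8 at an adjusted p below 0.05. Those 8 did not reach 2-fold. The medians of the nuclear and mitochondrial lists relative to all genes were -0.06 and -0.10.

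Markers of classical and alternative activation moved apart. Nos2, which makes nitric oxide from arginine, was at 0.044, 2.15 and 3.55 FPKM in NC and at 67.1, 76.0 and 89.1 FPKM in COM+Met (5.01 ± 0.33, adjusted p = 1.90e-08, and 4.46 without NC-5 and NC-6). Slc7a2, a transporter that imports arginine, rose by 2.40 ± 0.16. Arg1, which competes for arginine, was too low for the filter. It was at 0.598, 1.87 and 3.08 FPKM in NC and listed at 0 in 5 COM+Met samples and at 0.044 FPKM in COM+Met-4, and by a two-sided exact permutation test over all 924 splits the difference of -1.45 had p = 0.00216, the smallest that this design can give. Of 13 arginine and nitric oxide genes, 3 were higher and 1 lower. These counts were 2 and 0 without NC-6, without COM+Met-1 and without both NC-5 and NC-6, 2 and 1 without NC-5, COM+Met-4 or COM+Met-6, 3 and 2 without NC-4, and 4 and 0 under median-of-ratios scaling.

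Alternative activation and scavenger receptor genes gave 3 higher and 8 lower of 16 tested, and 3 and 7 of 15 without NC-5 and NC-6. The list median relative to all genes was -0.52, and -0.16 without those 2 samples. Mrc1, the mannose receptor (CD206), was at 53.8, 64.5 and 122 FPKM in NC and at 2.38, 2.53 and 2.95 FPKM in COM+Met (-4.39 ± 0.20, adjusted p = 9.44e-10), and the groups were far apart in every sample. Chil3, which encodes the lectin Ym1, split NC itself, with 837 to 1097 FPKM in NC-1 to NC-4 and 18160 and 18220 FPKM in NC-5 and NC-6 against 168 to 328 FPKM in COM+Met (-3.31 ± 0.82, and -1.90 without NC-5 and NC-6). The members that rose included Ccl22 (2.75 ± 0.59, and 1.75 without NC-5 and NC-6), a chemokine for regulatory T cells, and the scavenger receptor Stab1 (1.96 ± 0.28).

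The largest fall of all genes was S100a9, a calcium-binding protein abundant in neutrophils and monocytes. It was at 114, 165 and 259 FPKM in NC and at 0.942, 1.11 and 2.07 FPKM in COM+Met (-6.19 ± 0.19, adjusted p = 1.97e-11), and its partner S100a8 fell by 3.42. S100a4 (-5.79 ± 0.096), the membrane protein Emp1 (-5.41 ± 0.081), the carbonic anhydrase Car4 (-5.39 ± 0.46), Plet1 (-5.38 ± 0.34), Kazald1 (-5.28 ± 0.12) and Alox5 (-4.82 ± 0.089), which starts leukotriene synthesis, followed. Of 10 neutrophil markers tested, 6 were lower and 1 higher, which was Lcn2. The lower ones were S100a8, S100a9, Ngp, Ltf, Cxcr2 and Mmp8. Ngp was at 13.45 to 48.4 FPKM in NC and 0 to 0.5525 FPKM in COM+Met, and Mmp8 at 97.8 to 482 and 54.5 to 91.3 FPKM. Of the markers too low for the filter, Ly6g and Mpo were under 0.263 FPKM in every sample of both groups. Elane, Prtn3 and Ctsg reached 1.07, 1.355 and 1.33 FPKM in NC and were listed at 0 in COM+Met. The summed FPKM of all 16 was 552 to 1077 in NC and 738 to 860 in COM+Met, of which Lcn2 gave 9.03 to 39.0 FPKM in NC and 628 to 712 FPKM in COM+Met. The other 15 summed to 542 to 1038 FPKM in NC and 91.0 to 148 FPKM in COM+Met. Stromal or endothelial markers summed to 79.9 to 118 FPKM in NC and 18.4 to 27.7 FPKM in COM+Met, with 9 of 11 tested lower and 1 higher, and mast cell or basophil markers to 14.5 to 28.3 and 2.62 to 3.65 FPKM, with 3 of 3 lower. The part of such cells in these falls was not tested, and in bulk RNA fewer cells of a type and less RNA per cell cannot be told apart.

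Genes of mitosis were lower in COM+Met nearly without exception. Of 49 members, 48 were called lower and none higher, the median relative to all genes was -2.92, and the groups were fully apart in all 49. Without NC-5 and NC-6, and likewise under median-of-ratios scaling, 48 were called lower. The exception was Pttg1, the securin, with a difference of 0.42. Ube2c, which feeds ubiquitin to the anaphase-promoting complex, was at 33.2, 42.6 and 64.1 FPKM in NC and at 0.062, 0.218 and 0.380 FPKM in COM+Met (-5.24 ± 0.15, adjusted p = 1.61e-11). The cyclins Ccnb2 (-4.91 ± 0.14) and Ccna2 (-4.80 ± 0.22) were near 0 in COM+Met as well, at 0 to 0.364 and 0.118 to 0.207 FPKM. The median member had a log2(FPKM + 1) of 3.74 to 4.84 in NC, highest in NC-5 and NC-6, and of 0.37 to 0.58 in COM+Met.

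Most mitotic promoters held TTTGAA on either strand, the letters of the cell cycle genes homology region through which such genes are silenced in resting cells. It was found in 30 of 40 members with a promoter (75.0%), 5 of 42 DNA replication genes (11.9%), 185 of 1099 genes called lower (16.8%), 18 of 57 interferon-stimulated effectors (31.6%) and 4893 of all 27025 promoters (18.1%). The letters CCAAT on either strand were found in 33 of the 40 (82.5%) and in 37.9% of all promoters. They were also found in 15 of 20 MHC class I (75.0%), 17 of 23 sterol synthesis (73.9%) and 26 of 42 DNA replication genes (61.9%). Shares were 11 of 20 in interferon signalling genes (55.0%), 19 of 57 in effectors (33.3%) and 3 of 13 in chemokine ligands (23.1%). Both motifs are short, and the share of all promoters is the value to set beside those of the list. Chosen and shown as above are 6 members with some of the largest falls and a match before the start, with the homology region in capitals.
Ube2c (chr2:164769888-164769917, plus strand): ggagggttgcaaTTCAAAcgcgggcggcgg
Ccnb2 (chr9:70421704-70421733, minus strand): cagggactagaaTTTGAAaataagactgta
Cdc20 (chr4:118437344-118437373, minus strand): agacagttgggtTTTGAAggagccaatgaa
Top2a (chr11:99024195-99024224, minus strand): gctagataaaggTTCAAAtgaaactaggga
Ncapd2 (chr6:125191692-125191721, minus strand): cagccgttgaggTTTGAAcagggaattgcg
Cdkn3 (chr14:46760418-46760447, plus strand): ttccgcgcgtctTTCAAAgacttcctctga
In Ube2c, Cdc20 and Top2a the printed stretch ended 12, 1 and 6 bases before the start, and in Ccnb2, Ncapd2 and Cdkn3 it ended 150, 106 and 94 bases before it. Matches of the interferon element core and of the homology region overlapped in 13 of all promoters and in 0 of the effectors.

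DNA replication and S phase genes were lower as well. Of 52 tested, 31 were called lower and none higher, the median relative to all genes was -0.99, and without NC-5 and NC-6 it was 23 of 49. Rrm2, a subunit of ribonucleotide reductase, was at 13.8, 17.6 and 39.9 FPKM in NC and at 0.311, 0.391 and 0.587 FPKM in COM+Met (-3.98 ± 0.25). Cdkn2c, an inhibitor of cyclin-dependent kinases, fell by 3.24. Myc, which drives growth, fell by 3.03 and was at 9.56, 10.6 and 14.7 FPKM in NC and 0.365, 0.455 and 0.801 FPKM in COM+Met.

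Sterol and fatty acid synthesis fell as a group. Of 33 tested, 26 were called lower and 1 higher, the median relative to all genes was -1.55, and 25 and 1 without NC-5 and NC-6. Hmgcs1, which makes the precursor of mevalonate, was at 134, 168 and 199 FPKM (lowest, median, highest) in NC and at 15.2, 16.5 and 17.8 FPKM in COM+Met (-3.23 ± 0.092, adjusted p = 1.43e-11). Srebf2, the transcription factor that controls this pathway, had means of 91.5 and 19.6 FPKM (-2.17). The member that rose was Acsl1 (2.96 ± 0.27), which activates fatty acids. The letters TCACNCCAC of a sterol regulatory element (GTGGNGTGA on the other strand) were found in 1 of 23 promoters of the list (4.35%) and in 1.22% of all promoters.

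Lipid handling was mixed, with 5 of 28 higher and 7 lower. The fatty acid-binding protein Fabp3 rose from 2.69 to 6.69 FPKM in NC to 72.2 to 106 FPKM in COM+Met (4.07 ± 0.17), and the cholesterol exporter Abca1 by 3.01 ± 0.35, or 2.39 without NC-5 and NC-6. The nuclear receptor Pparg was at 7.57 to 22.8 FPKM in NC and 0.199 to 0.524 FPKM in COM+Met (-3.27 ± 0.24), and the scavenger receptor Cd36 fell by 2.65. Of 35 lysosome and phagocytosis genes, 7 were higher and 5 lower, with 5 and 7 without NC-5 and NC-6 and 10 and 4 under median-of-ratios scaling, among them the high-affinity antibody receptor Fcgr1 (2.81 ± 0.091) and the tetraspanin Cd9 (-2.13 ± 0.17).

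**Figure D3:**
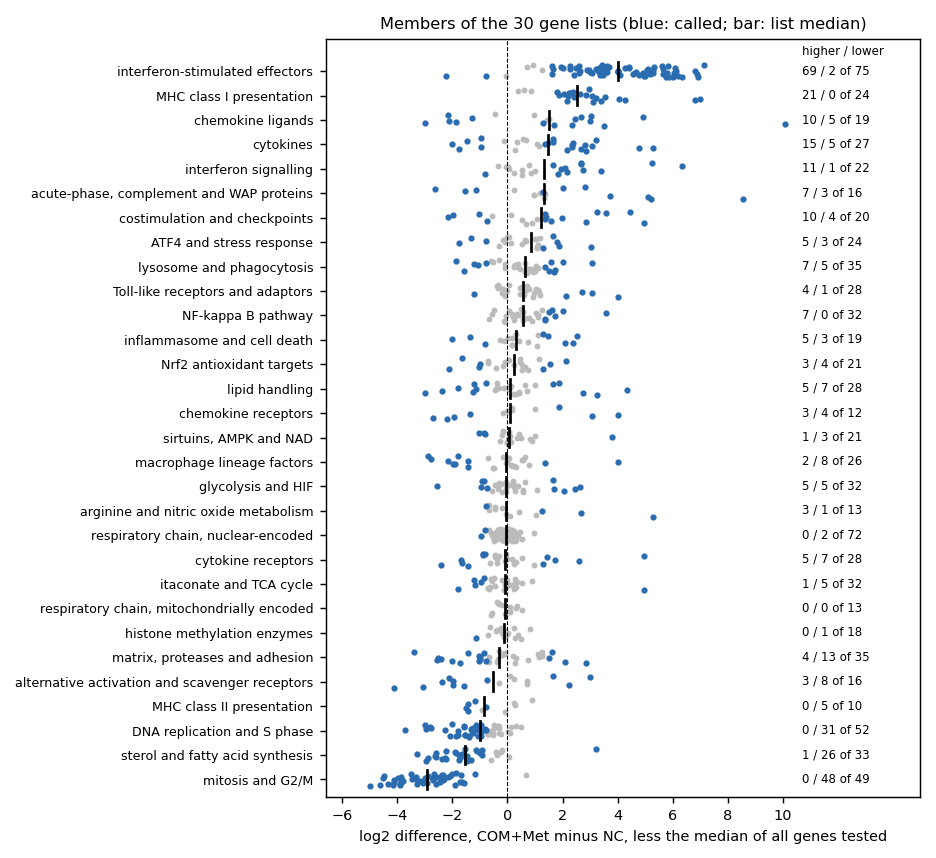
Difference of COM+Met minus NC for each tested member of the 30 gene lists, on the log2(FPKM + 1) scale and relative to the median of all genes. Blue points are called genes, grey points are not, and the bar is the median of the list, which runs from 4.0 for interferon-stimulated effectors to -2.92 for mitosis.

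Matrix, protease and adhesion genes gave 4 of 35 higher and 13 lower, 1 and 16 without NC-5 and NC-6, and 9 and 10 under median-of-ratios scaling. The gelatinase Mmp2 rose by 2.60 ± 0.23. Mmp14, which activates it, had a difference of 1.84 ± 0.68 that was 0.66 without those 2 samples, where it was not called. Cdh1, which encodes E-cadherin, was at 9.45, 12 and 17.8 FPKM in NC and 0.031 to 0.156 FPKM in COM+Met (-3.67 ± 0.12) and is also a marker of tubular epithelial cells. Of the other markers of those cells, Epcam was at 0.181 to 1.77 FPKM in NC and 0 to 0.138 FPKM in COM+Met, and Aqp1 at 0.198 to 0.910 and 0 to 0.078 FPKM, both too low for the filter. The part of such cells in the fall of Cdh1 was not tested. The collagen gene Col1a1 had a mean of 13.4 FPKM in NC and 0.190 FPKM in COM+Met.

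Acute-phase, complement and WAP domain genes gave 7 higher and 3 lower of 16, or 10 and 3 under median-of-ratios scaling, with a median of 1.31 above all genes that was 0.56 without NC-5 and NC-6. Saa3, an acute-phase protein that macrophages make, was at 6.02, 30.8 and 54.4 FPKM in NC and 5845, 7675 and 8350 FPKM in COM+Met (8.31 ± 0.47, adjusted p = 5.63e-09, and 7.55 without those 2 samples). Lcn2, which withholds iron from bacteria, rose from 9.03 to 39.0 FPKM in NC to 628 to 712 FPKM in COM+Met (4.96 ± 0.30). Wfdc21 fell by 2.89 and properdin (Cfp), which stabilises the alternative complement pathway, by 1.79.

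Of 21 Nrf2 targets, which protect against oxidation, 3 were higher and 4 lower, with 4 and 2 under median-of-ratios scaling and 2 and 5 without NC-5 and NC-6. The mitochondrial superoxide dismutase Sod2 (1.86 ± 0.23) and Prdx1 (1.30 ± 0.15) rose, while the quinone reductase Nqo1 was at 56.5, 117 and 131 FPKM in NC and 13.5, 16.1 and 32.3 FPKM in COM+Met (-2.39 ± 0.25), and the iron exporter Slc40a1 fell by 1.90. Of 24 ATF4 and stress response genes, 5 were higher and 3 lower, or 10 and 2 under median-of-ratios scaling, with a median of 0.84 above all genes. Ddit3 (CHOP), a factor of the integrated stress response, was at 9.10, 10.6 and 11.2 FPKM in NC and 65.1, 77.2 and 91.1 FPKM in COM+Met (2.79 ± 0.087), and Trib3, which it induces, rose by 1.60. Psat1, an enzyme of serine synthesis, and Herpud1, which acts in the degradation of misfolded proteins, fell by 2.04 and 1.59.

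Of 21 sirtuin, AMPK and NAD genes 4 were called, and of 18 histone methylation enzymes 1, beside 19.3% of all genes. Sirt1, a NAD-dependent deacetylase, was at 5.59, 6.83 and 7.13 FPKM in NC and 4.29, 5.08 and 7.24 FPKM in COM+Met, with overlapping groups and a difference of -0.23 ± 0.12 (adjusted p = 0.0888). Of 21 genes in the first list, 1 was higher and 3 lower, or 2 and 1 under median-of-ratios scaling. The rise was Cd38 (3.53 ± 0.34), which breaks down NAD, and the falls included the AMPK gamma subunits Prkag2 (-1.30) and Prkag1 (-1.10, a call lost under median-of-ratios scaling). Of 18 histone methylation enzymes, none was higher and 1 was lower. That was Ezh2, which methylates H3K27, at 6.49, 8.11 and 12.8 FPKM in NC and 2.12, 2.57 and 3.50 FPKM in COM+Met (-1.42 ± 0.16, adjusted p = 3.46e-06). Its partners in the same complex, Suz12 (-0.39) and Eed (0.03), were not called.

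The levels in the COM group show which of these differences were also seen without Met. COM shares the NC samples as its reference, so its differences are given side by side and not tested here. In interferon-stimulated effectors the median log2 difference was 3.44 for COM minus NC and 3.74 for COM+Met minus NC. Medians for COM and COM+Met, each minus NC, were 1.89 and 2.27 in MHC class I genes, -2.96 and -3.18 in mitosis, -1.77 and -1.82 in sterol synthesis, and 1.23 and 1.22 in cytokines. Nuclear-encoded respiratory chain genes had -0.53 and -0.32, and ATF4 and stress response genes 0.12 and 0.58. COM-6 lay low in both of these lists. Its median log2(FPKM + 1) was 4.23 and 2.90, against 5.38 to 5.61 and 3.83 to 4.15 in the other COM samples. COM-1 to COM-3 lay below every COM+Met sample in the effectors, and COM-4 to COM-6 above every one.

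**Figure D4:**
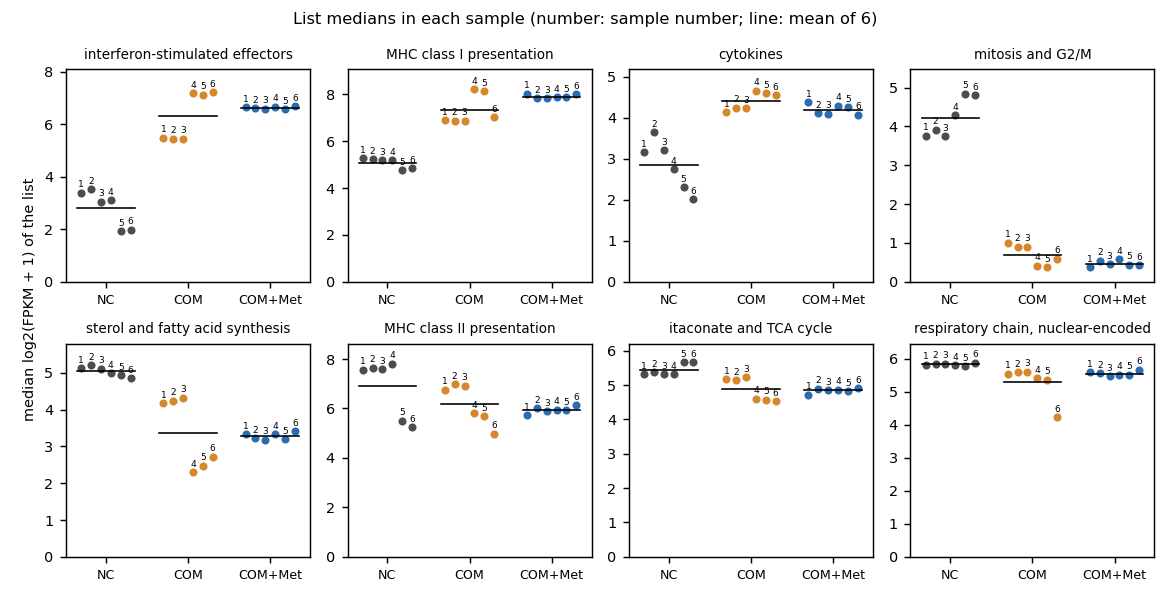
Median log2(FPKM + 1) of the members of 8 gene lists in each sample, with a point per sample, the sample number printed above it and a line at the mean of each group. NC-5 and NC-6 lie apart in most panels and the COM samples spread more widely than the COM+Met samples, for example 5.44 to 7.22 against 6.57 to 6.68 in interferon-stimulated effectors.

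Tested directly in their own 12 samples, COM+Met and COM differed in far fewer genes. Of 10364 genes, 63 were called higher in COM+Met (0.608%) and 167 lower (1.61%). None of the 75 interferon-stimulated effectors was higher and 1 was lower, Ifitm1, and none of 24 MHC class I, 32 sterol synthesis or 15 tested mitosis genes was called by limma, where 13, 2 and 4 had an unadjusted p below 0.05. Of the 49 mitosis genes tested against NC, the rest were under the filter in COM and COM+Met and were not tested here. The spread within COM was wide, and a gene that was not called cannot be taken as equal. Nos2, for example, was at 4.42 to 5.20 FPKM in COM-1 to COM-3, at 170 to 260 FPKM in COM-4 to COM-6 and at 67.1 to 89.1 FPKM in COM+Met (1.17 ± 1.03, adjusted p = 0.489). Cxcl10 had the same split, with 14.9 to 17.6 and 481 to 544 FPKM in COM.

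Il1b showed the clearest difference between COM+Met and COM among the genes of the study's question. Its lowest, median and highest values were 455, 548 and 609 FPKM in COM and 158, 171 and 184 FPKM in COM+Met, a difference of -1.64 ± 0.099 (adjusted p = 5.61e-06) that ranged from -1.68 to -1.60 with any sample left out. The call was lost when all 18 samples entered 1 fit. Every COM+Met sample was lower than every COM sample, while NC-2 at 209 FPKM was higher than COM+Met. Acod1 was at 1305 to 1514 FPKM in COM and at 1650 to 2153 FPKM in COM+Met, which did not overlap, but the difference of 0.54 ± 0.099 (adjusted p = 0.00408) was under 2-fold. Sdha (0.12), Sirt1 (0.30), Ezh2 (-0.43), Mrc1 (-0.10) and Cd86 (-0.04) were not called.

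Among the genes called against both groups, Apoe, a lipid carrier, had the largest rise over COM. It was at 15.1, 26.4 and 119 FPKM in COM, 78.0, 397 and 558 FPKM in COM+Met and 30.2, 66.7 and 109 FPKM in NC (3.20 ± 0.59 against COM, adjusted p = 0.00399; 2.48 ± 0.46 against NC). COM+Met-1, at 78.0 FPKM, lay far below the other 5 samples of its group, and the difference from COM with a sample left out was 2.97 to 3.61. Csf1, the growth factor of macrophages, was at 14.0 to 51.4 FPKM in COM and 63.5 to 122 FPKM in COM+Met (1.53 ± 0.35), and at 18.7 to 40.9 FPKM in NC. Slamf8 (1.73 ± 0.42), Calhm6 (1.53 ± 0.37) and Ddit3 (1.22 ± 0.24) were higher in COM+Met than in COM as well, and their calls held with any sample left out. Leaving out 1 sample does not test the split between COM-1 to COM-3 and COM-4 to COM-6. Slamf8 was at 4.87 to 6.49 and 18.4 to 32.2 FPKM in these sets and at 28.0 to 46.9 FPKM in COM+Met, which overlapped. Ddit3 was at 20.2 to 24.5 and 36.4 to 57.0 FPKM in these sets and at 65.1 to 91.1 FPKM in COM+Met. Fabp3 (1.15 ± 0.21) and Trib3 (1.09 ± 0.25) were not called without COM-6, nor was Batf (1.05 ± 0.19) without COM-1 or COM-2.

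On the lower side, several genes whose ranges overlapped between COM and NC were low in COM+Met. Il1f9 was at 89.2, 126 and 146 FPKM in COM, 79.1 to 150 FPKM in NC and 16.1, 21.8 and 59.3 FPKM in COM+Met (-2.26 ± 0.27 against COM, adjusted p = 0.000283). Wfdc21 was at 57.7, 164 and 246 FPKM in COM and 21.9, 23.8 and 28.1 FPKM in COM+Met (-2.48 ± 0.32), Nqo1 at 24.3, 84.0 and 141 FPKM in COM (-1.83 ± 0.45) and S100a8 at 28.4, 166 and 301 FPKM in COM against 15.2, 21.5 and 39.6 FPKM in COM+Met (-2.28 ± 0.58). Nqo1 was at 130 to 141 FPKM in COM-1 to COM-3 and at 24.3 to 38.3 FPKM in COM-4 to COM-6. The latter overlapped COM+Met, at 13.5 to 32.3 FPKM. Wfdc21 belongs to a family of small secreted proteins, and S100a8 had values in COM that reached those of NC. Cd36 (-1.41 ± 0.27), Ccr1 (-1.24 ± 0.17), Il1r2 (-1.44 ± 0.18), Emp1 (-1.75 ± 0.19), Car4 (-2.47 ± 0.44) and Slc40a1 (-1.12 ± 0.20) were lower than in COM with any sample left out. The ranges of Car4 overlapped, at 5.46 to 15.7 FPKM in COM and 0.248 to 7.31 FPKM in COM+Met. The calls on S100a9 (-1.61 ± 0.48) and Plet1 (-2.42 ± 0.70) were lost in 9 and 8 of the 12 fits that left out a sample.

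**Figure D5:**
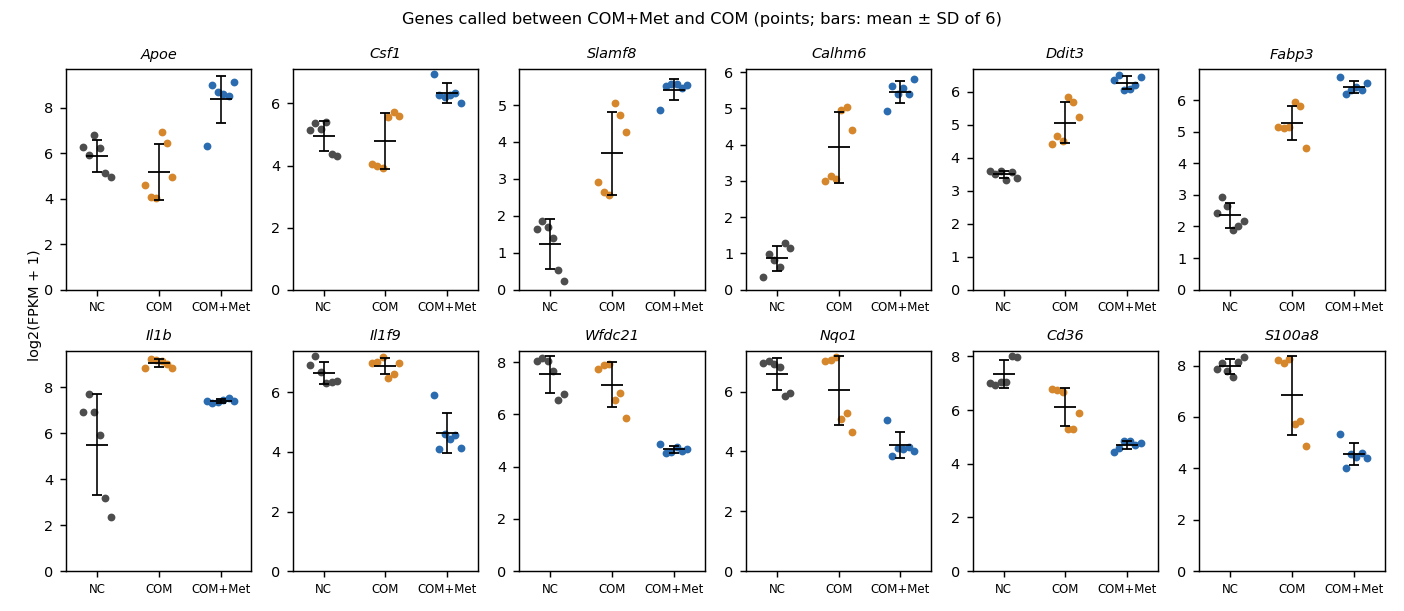
Values of 12 genes called between COM+Met and COM, on the log2(FPKM + 1) axis, in the 6 samples of NC, COM and COM+Met, with a point per sample and the mean ± SD. Apoe, Csf1, Slamf8, Calhm6, Ddit3 and Fabp3 were higher in COM+Met than in COM, and Il1b, Il1f9, Wfdc21, Nqo1, Cd36 and S100a8 were lower.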

How the data were processed

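TruSeq libraries were made from total RNA of 18 samples, 6 in each of 3 groups taken from the sample labels, and all sample columns were used. The authors deposited FPKM values, a column per sample. The submitters' processing notes list Bowtie 0.12.2 and, as builds, both mm9 and mm8. What computed FPKM, and from which annotation, is not given in the sources used here, and neither depth nor counting error is known. FPKM is scaled to each sample's total, so that a gene falls when abundant genes rise.

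Genes whose mean reached 1 FPKM were tested on log2(FPKM + 1), a scale that understates changes of low genes, with limma 3.58.1 (lmFit, eBayes with trend) in R 4.3.3 and Benjamini-Hochberg adjustment. Every adjusted p comes from this fit, made on the 12 samples of each comparison. The procedure was tested on simulated data. Tables and plots used Python 3.11.15, numpy 2.4.6, pandas 2.3.3 and matplotlib 3.10.9. Members, gene lists and tests were chosen with earlier results of these data known. Named genes were the 10 largest rises and falls whose groups did not overlap, up to 2 in each direction per list, the genes of the study's question, and the 5 highest and 5 lowest against COM. Some members that met this rule are not reported here. Stat2, Ifnb1, Isg15, Gbp5, Ifit1, H2-K1, B2m, Tap1, Psmb8, Nlrc5, Cd274, Nlrp3, Fh1, Pttg1, Srebf2, Suz12, Eed, Egr2, Klf4, Adgre1 and Col1a1 were named after their values were seen. GENCODE M21 gave GRCm38 positions, matched by Ensembl identifier. RefSeq promoters matched 8303 of 10375 tested symbols. Alternatives were pseudocounts of 0.1 and 5, no filter or one of 5 FPKM, rescaling to the same sum, median-of-ratios and quantile scaling, the replicate number as a block, 1 fit of all 18 samples, sample weights, and samples left out.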

Additional observations from a re-analysis of the deposited data

Results flagged for a closer look

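In each group of 6, the gap between the most extreme sample and its nearest neighbour was divided by the range of the group, and a value above Dixon's 95% critical value marked a sample far from the others. Of 240 groups (NC and COM+Met of 120 named genes), 27 were marked (11.3%), while chance marks about 1 in 20. COM+Met-1 was the sample that stood apart in 22 of them, COM+Met-2 and NC-2 in 2 each and COM+Met-4 in 1. No explanation was tested.

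In COM+Met-1 the ratio of gap to range was 0.85 for Car4, 0.728 for Plet1, 0.684 for Ifitm1, 0.679 for Ccl6, 0.715 for Ccrl2, 0.631 for Il12a, 0.724 for Il1f9, 0.654 for Tlr1 and 0.646 for Tlr8. In the same sample it was 0.867 for Acod1, which lay at 1650 FPKM against 2078 to 2153 FPKM in the other 5, and 0.777 for Apoe, at 78.0 FPKM against 361 to 558 FPKM. The ratio was 0.86 for Aldoc, 0.659 for Abca1, 0.835 for Slamf8, 0.67 for Cd200r1, 0.777 for Fcgr1, 0.864 for Ctsk, 0.912 for Timp3, 0.754 for Nqo1, 0.706 for Slc40a1, 0.662 for the new gene model Mus_musculus_newGene_2074 and 0.666 for Csf1. All of these genes were called in COM+Met against NC.

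Elsewhere, the ratio was 0.678 for Ccr2 and 0.702 for Prkag1 in COM+Met-2, 0.668 for Pfkfb4 and 0.716 for Batf in NC-2, and 1.0 for Arg1 in COM+Met-4, where it was 0.044 FPKM and listed at 0 in the other 5 samples.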

How the results depend on the processing

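The number of genes called against NC was 2078 and within 1.5 times that under every alternative but a pseudocount of 5 FPKM, which gave 1117. With 1 sample left out it ranged from 2015 to 2136. Against COM 230 genes were called, with 370 at a pseudocount of 0.1 FPKM, 90 at 5 FPKM and 719 with sample weights, and 182 to 300 with 1 sample left out, lowest without COM-2 and highest without COM-4. The cause of these differences was not tested. Scaling changed the split of calls against NC, with 29.4% higher as deposited, 46.0% under median-of-ratios scaling and 45.6% under quantile normalisation. No called value changed sign. Among values not called, Sdhb (0.28), Sdhd (0.04) and Sirt1 (0.04) changed sign under median-of-ratios scaling. The medians of 5 lists relative to all genes crossed 0 over the alternatives, namely chemokine receptors (-0.11 to 0.17), glycolysis (-0.23 to 0.04), mitochondrially encoded genes (-0.52 to 0.09), lipid handling (-0.10 to 0.15) and sirtuins (-0.12 to 0.08). Of the values recomputed for the named genes against NC under each alternative, 2676 kept their side of the threshold and 52 lost the call, and 516 and 75 did so against COM.

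With the replicate number as a block, 2080 genes were called against NC and 202 against COM. The numbers did not pair the samples, since deviations from the group means of same-numbered samples correlated between -0.104 and 0.056.

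FPKM carries no read depth, so differences in genes near 0 have no counting error. The groups hold 6 samples of unknown origin, and NC-5 and NC-6 widened the spread of NC. Arg1 gave an exact permutation p of 0.00216 to 0.00476 with samples left out, and its difference was -1.61 to -1.34 with 1 left out.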

Other observations

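Transcription factors of the macrophage lineage gave 2 of 26 higher and 8 lower, beside 5.66% and 13.6% of all genes. These counts were the same under median-of-ratios scaling and without NC-5 and NC-6, and the list median was -0.04 relative to all genes. Batf2, an interferon-induced factor of the AP-1 family, was at 0.0998, 0.885 and 1.45 FPKM (lowest, median, highest) in NC and at 19.7, 21.5 and 27.2 FPKM in COM+Met (3.77 ± 0.19), and its relative Batf at 11.4 to 15.4 and 24.1 to 32.9 FPKM (1.11 ± 0.084). Id3, an inhibitor of helix-loop-helix factors, was at 11.1, 17.5 and 26.2 FPKM in NC and 0.407, 1.05 and 2.44 FPKM in COM+Met (-3.13 ± 0.21). Klf4 and Egr2, both factors of monocyte differentiation, had means of 23.3 and 35.9 FPKM in NC and of 3.60 and 9.71 FPKM in COM+Met, and fell by 2.25 and 1.69.

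Of the genes called, 118 were new gene models without an Ensembl identifier. Mus_musculus_newGene_7625 was at 19.2, 22.2 and 30.1 FPKM in NC, 4.94, 15.8 and 26.0 FPKM in COM and 0.574, 0.880 and 1.19 FPKM in COM+Met, and was lower than in COM with any sample left out (-2.81 ± 0.37, adjusted p = 0.000547). Mus_musculus_newGene_2074 was at 0.490 to 3.93 FPKM in NC and 28.7 to 53.4 FPKM in COM+Met (3.78 ± 0.29). What these models encode is not given in the table.

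Dendritic cell markers summed to 74.5 to 254 FPKM in NC and 1280 to 1573 FPKM in COM+Met, of which Bst2, which interferon also induces, made up 25.3 to 68.6 and 1169 to 1440 FPKM. Lymphocyte markers summed to 1.34 to 4.38 and 0.470 to 0.931 FPKM, and erythroid or megakaryocyte markers to 14.0 to 110 and 67.5 to 85.2 FPKM.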
